A study of Sus scrofa with 120 samples.

Results

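The 5 channel genes described here were followed across primary pig chondrocytes: GJA1, which encodes the gap junction protein connexin 43; PANX1 and PANX3, which encode pannexins; and KCNN4 and KCNMA1, which encode potassium channels opened by calcium. They are 5 of the 31907 genes in the count table and were found by symbol, with 1 line each. By the RefSeq annotation of the pig assembly Sscrofa11.1, GJA1 (ENSSSCG00000004241) lies at chr1:40988818-41002129, PANX1 (ENSSSCG00000032360) at chr9:26443425-26491010, PANX3 (ENSSSCG00000015194) at chr9:51854148-51860330, KCNN4 (ENSSSCG00000003069) at chr6:50580016-50593518 and KCNMA1 (ENSSSCG00000010325) at chr14:79345382-80106337. They were selected on earlier results from these same libraries, chosen by gene function and, for KCNN4, by its rise with GSK101. KCNN4 values from GSK101 libraries are therefore given as a description with no p. The chondrocytes came from femoral cartilage and were cast in 2% agarose, and 120 libraries were made in 30 groups of 4.

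In the TRPV4 experiment (48 libraries, 12 groups), constructs were harvested 3 h or 9 h after stimulation began. Free-swelling constructs in DMSO were the vehicle controls. The other constructs received GSK101 (1 nM), an agonist of TRPV4, or GSK205 (10 µM in the design text, but millimolar in the sample protocols), an antagonist of it, or the cytokine IL-1 (1 ng/mL, called IL-1a in the sample protocols). Cyclic loading at 10% deformation and 1 Hz lasted 3 h and was applied alone or together with GSK205, so that the 9 h harvest came well after it had ended. In the PIEZO1 experiment (72 libraries, 18 groups), cells were left non-transfected (NT) or were transfected with a non-targeting siRNA (siNTC) or with siRNA against PIEZO1 (siPIEZO1). Each of these states was crossed with a DMSO vehicle, a single slow compression to 80% deformation, or the PIEZO1 agonist Yoda1 (5 µM in the design text, millimolar in the sample protocols), at the same harvest times. Whether the 4 libraries in a group stem from separate animals is not in the labels, and a p-value therefore measures only the spread between these libraries, which may be technical.

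Connexins dock between neighbouring cells to form gap junctions, and connexin 43 in a free membrane can also act as a hemichannel that lets ATP out. Pannexins form large-pore channels that release ATP and other small molecules. Released ATP acts on P2X and P2Y receptors and is cleared by ectoenzymes. KCNN4 encodes an intermediate-conductance channel opened by calcium bound to calmodulin, best known from red cells and lymphocytes. KCNMA1 encodes the pore of the large-conductance BK channel, opened jointly by calcium and voltage. TRPV4 and PIEZO1 both admit calcium when opened.

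Total counts ran from 20651530 to 80223797 in TRPV4 libraries and from 36807992 to 66240251 in PIEZO1 libraries. Libraries of the 2 experiments were made with different kits, and no level was tested between them. The spread between libraries was wider in the PIEZO1 experiment (common biological coefficient of variation 0.282 at 3 h and 0.3 at 9 h, against 0.107 and 0.0874 in the TRPV4 experiment). The 8 chondrocyte markers, COL2A1 among them, were present in every group, with summed levels of 65600 to 124000 CPM (counts scaled to a common library size) in TRPV4 libraries and of 8640 to 15700 CPM in PIEZO1 libraries. PIEZO1 itself, over the 3 stimuli, was lower with siPIEZO1 than with siNTC by -0.43 ± 0.11 log2 units at 3 h (SE, adjusted p = 0.0066) and -0.60 ± 0.13 at 9 h (adjusted p = 0.001). In vehicle alone that fall did not pass the test (adjusted p = 0.58 and 0.062). Fewer cells of a type and less RNA per cell cannot be told apart in such bulk libraries. CPM values were scaled by trimmed means and are given per library, as a range over 4 libraries, or as mean ± SD (n = 4). Changes are log2 fold changes ± SE from edgeR's quasi-likelihood test, and a gene was called at an adjusted p below 0.05 over all genes tested.

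IL-1 and GSK101 moved most of these genes by 9 h. With IL-1, 2 of the 4 genes in the fit rose and 0 fell at 3 h, where 32.2% of all genes were called. At 9 h, 2 rose and 1 fell, where 65.1% were called. With GSK101, of the 3 genes tested besides KCNN4, 2 rose at 3 h (40% of all genes called), and 2 rose and 1 fell at 9 h (62.3%). Loading gave 1 rise and 1 fall at 3 h (10.2%) and 2 rises and 1 fall at 9 h (23.7%). GSK205 gave 1 rise and 2 falls at 3 h (27.1%) and 1 rise and 1 fall at 9 h (21.2%). Since most genes were called at 9 h with IL-1 or GSK101, a call there says little by itself about these channels. PANX3 had too few reads to pass the filter on low counts in the TRPV4 experiment. These 4 comparisons at a given time share their DMSO libraries.

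**Figure D1:**
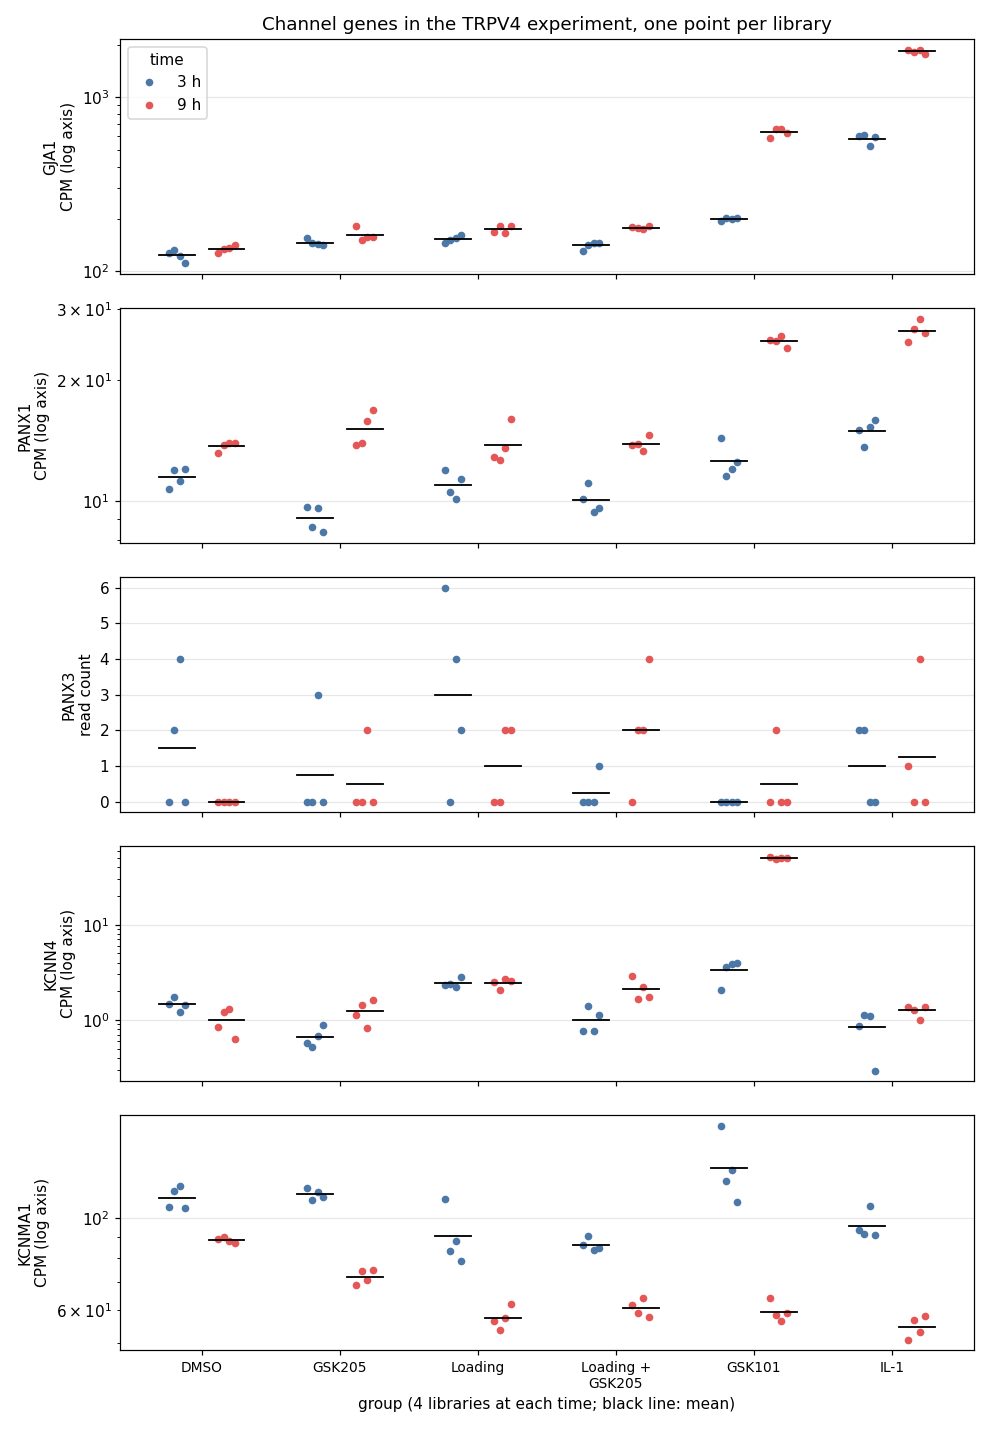
Level of each channel gene in every TRPV4 library by condition (CPM on log axes, except PANX3, shown as read count), with 4 libraries and a black mean line per condition and time, blue at 3 h and red at 9 h. GJA1 was highest with IL-1 at 9 h (1834 CPM), and KCNN4 with GSK101 at 9 h (50.0 CPM), and in both panels these libraries lie above all others.

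GJA1 had its highest levels of the experiment with IL-1. The 4 DMSO libraries at 3 h held 111, 122, 128 and 133 CPM of GJA1, and the 4 IL-1 libraries held 524, 588, 595 and 605 CPM. At 9 h the DMSO libraries held 127, 134, 136 and 142 CPM, and the IL-1 libraries 1773, 1810, 1877 and 1878 CPM. The groups lay far apart at both times. At 3 h GJA1 rose by 2.24 ± 0.06 (adjusted p = 3.8e-24), and at 9 h by 3.74 ± 0.06 (adjusted p = 3.9e-32). The gain between the times was itself called, at 1.54 ± 0.08 (adjusted p = 5.4e-23).

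GSK101 raised GJA1 less than IL-1 did and mostly by 9 h. The GSK101 libraries at 3 h were deeper than the DMSO libraries (62677053 to 80223797 counts against 20651530 to 29904509), and the part of depth in the GSK101 results was not tested. The GSK101 libraries held 195, 200, 202 and 203 CPM at 3 h and 584, 625, 661 and 661 CPM at 9 h, above every DMSO library of the same time. The rises were 0.71 ± 0.06 (adjusted p = 1.4e-11) and 2.21 ± 0.05 (adjusted p = 2.5e-26). The effect grew by 1.54 ± 0.08 from 3 h to 9 h (adjusted p = 8.4e-23). Set directly against IL-1, GJA1 was lower with GSK101 at 3 h (-1.52 ± 0.06, adjusted p = 5.1e-20) and again at 9 h (-1.54 ± 0.05, adjusted p = 1.3e-22). In these direct comparisons of GSK101 with IL-1, 1 of the 3 genes tested was higher and 2 were lower at 3 h (41.5% of all genes called), and 0 were higher and 1 lower at 9 h (53.8%).

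Loading changed GJA1 by far less. The loaded libraries held 146 to 161 CPM at 3 h and 166 to 182 CPM at 9 h, above all DMSO libraries of the same time. The rises were 0.32 ± 0.06 (adjusted p = 0.00024) and 0.36 ± 0.05 (adjusted p = 6e-06), and the change of the loading effect between the times was not called for any of the 4 genes in the fit (10.1% of all genes called). In that last comparison the unadjusted p was below 0.05 for 1 of the 4, KCNMA1, which DESeq2 also called. GSK205 alone raised GJA1 too, to 141 to 156 CPM at 3 h and 151 to 182 CPM at 9 h (0.25 ± 0.06, adjusted p = 0.0013, and 0.25 ± 0.05, adjusted p = 0.00064). With GSK205 present, the loading effect on GJA1 was not called at 3 h (-0.06 ± 0.06, adjusted p = 0.6) or at 9 h (0.13 ± 0.05, adjusted p = 0.071). The 9 h rise was called by DESeq2 (adjusted p = 0.033), without the filter on low counts (0.048) and without replicate 1 of the GSK205 group (0.19, adjusted p = 0.0044). The interaction of loading and GSK205 was called for GJA1 at 3 h (-0.38 ± 0.08, adjusted p = 0.01), as the only one of the 4 genes, where 2.25% of all genes were called.

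In the order of group means, IL-1 at 9 h stood first, then GSK101 at 9 h and IL-1 at 3 h, which overlapped, and then GSK101 at 3 h. From loading with GSK205 at 9 h down to DMSO at 3 h, each of the other 8 groups overlapped its neighbour in the order of GJA1 levels. The summed level of 5 osteoblast markers also rose at 9 h with both agents, but more with GSK101 than with IL-1, the reverse of GJA1. It was 1210 to 1320 CPM with DMSO at 9 h, 11700 to 12200 CPM with GSK101 and 9340 to 9730 CPM with IL-1. SPP1, which encodes the matrix protein osteopontin, rose with both agents and made up nearly all of the sum. The defining marker SP7 was lower with GSK101 (-2.01 ± 0.53, adjusted p = 0.0013) and with IL-1 (-1.63 ± 0.48, adjusted p = 0.0035). The summed level of 6 fibroblast and synovium markers was 293 to 312 CPM with DMSO and 949 to 1080 CPM with IL-1 at 9 h, led by COL3A1 (1.80 ± 0.06, adjusted p = 3.9e-22) and the lubricin gene PRG4 (2.70 ± 0.12, adjusted p = 3.5e-19). THY1 fell (-0.34 ± 0.09, adjusted p = 0.0011), and COL1A1 was not called. With GSK101 at 9 h that sum was 260 to 279 CPM, below the DMSO libraries. The part of these cell types in the GJA1 result was not tested.

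Other connexins moved in both directions. Of 12 other connexins in the 9 h fit, 2 rose and 6 fell with IL-1, where 65.1% of all genes were called. Their median change was -0.78 beside -0.07 over all genes. GJA5, a connexin best known from heart and vessels, rose by 2.43 ± 0.69 (adjusted p = 0.0027), and GJD4 rose by 1.05 ± 0.44 (adjusted p = 0.039). Among those that fell were GJB6 (-2.90 ± 0.37) and GJB5 (-2.58 ± 0.44). With GSK101 at 9 h, 1 rose and 3 fell, where 62.3% of all genes were called, with a median of -0.61. The riser was GJC1, which encodes connexin 45 (1.56 ± 0.10, adjusted p = 8.8e-15), and GJB6, GJC3 and GJA9 fell. At 3 h, 1 of 13 rose and 1 fell under each of the 2 agents (32.2% of all genes called with IL-1 and 40% with GSK101). Loading called 0 of the other connexins at either time, where 10.2% of all genes were called at 3 h and 23.7% at 9 h. The 12 at 9 h had a median of 0.05.

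Genes that anchor or regulate gap junctions mostly rose with GSK101 at 3 h. There 9 of 12 rose and 0 fell, where 40% of all genes were called, with a median of 0.33 beside 0.01 over all genes. CCN3, a matricellular protein that binds connexin 43, rose by 3.85 ± 0.07 (adjusted p = 4.6e-28), and EZR, which encodes the membrane linker ezrin, by 0.72 ± 0.05 (adjusted p = 2.2e-13). At 9 h, 6 of 13 rose and 1 fell, where 62.3% of all genes were called. The risers included CCN3 (4.60 ± 0.06) and CAV1, the caveolin gene (2.67 ± 0.05). With IL-1 at 9 h, 5 rose and 6 fell, where 65.1% of all genes were called. CCN3 rose by 1.88 ± 0.06 and CDH2, the N-cadherin gene, by 1.79 ± 0.50, while DBN1 fell by 1.06 ± 0.11 on the log2 scale and NEDD4, a ubiquitin ligase, by 0.84 ± 0.08. Loading at 9 h raised 2 and lowered 3 of the 13, where 23.7% of all genes were called. CAV1 lay at 0.33 ± 0.05 and PRKCA, a protein kinase C gene, at -0.34 ± 0.06.

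**Figure D2:**
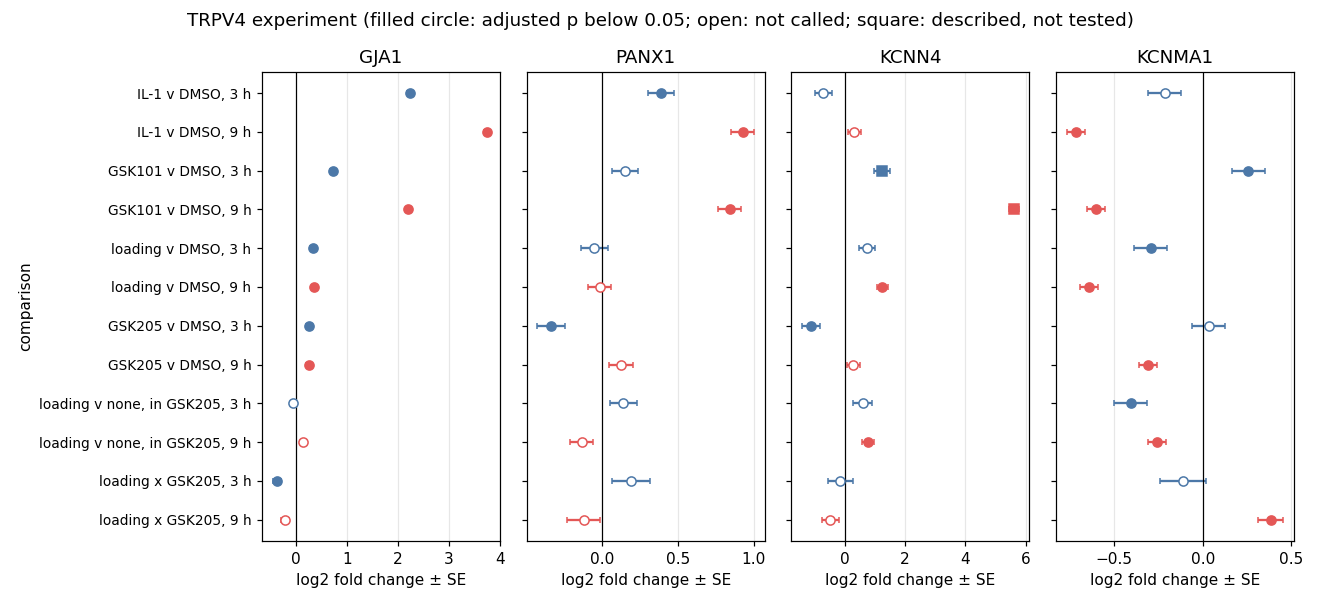
Log2 fold change ± SE of 4 channel genes in 12 comparisons of the TRPV4 experiment, blue at 3 h and red at 9 h. Filled circles were called, open circles were not, and squares are KCNN4 values described without a test. GJA1 with IL-1 reached 3.74 at 9 h, and KCNMA1 lay below 0 for each agent against DMSO at 9 h.

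PANX1 was higher at 9 h with both IL-1 and GSK101. The DMSO libraries held 10.7 to 12.0 CPM of PANX1 at 3 h and 13.2 to 13.9 CPM at 9 h. With IL-1, PANX1 held 13.6, 15.0, 15.3 and 15.9 CPM at 3 h and 24.8, 26.2, 26.7 and 28.4 CPM at 9 h, all above the DMSO libraries of the same time. Those rises were 0.39 ± 0.09 (adjusted p = 0.00077) and 0.93 ± 0.07 (adjusted p = 1e-12). With GSK101, the 4 libraries held 11.6 to 14.3 CPM at 3 h, overlapping DMSO, and 24.1, 25.0, 25.2 and 25.7 CPM at 9 h. PANX1 was not called with GSK101 at 3 h (0.15 ± 0.09, adjusted p = 0.16) and rose at 9 h (0.84 ± 0.08, adjusted p = 2e-11).

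The growth of the PANX1 effect from 3 h to 9 h was called for both agents, at 0.74 ± 0.11 with GSK101 (adjusted p = 1.7e-07) and 0.58 ± 0.11 with IL-1 (adjusted p = 2.3e-05). Over all genes, 45.8% and 38.8% were called in those 2 comparisons, where 2 channel genes rose and 1 fell with GSK101, and 3 rose and 1 fell with IL-1. Between GSK101 and IL-1 themselves, PANX1 differed at 3 h (-0.24 ± 0.08, adjusted p = 0.024), a call lost when any of 4 of the 8 libraries was left out (adjusted p up to 0.084). It was not called at 9 h (-0.09 ± 0.07, adjusted p = 0.34, 95% interval -0.23 to 0.06). With loading PANX1 held 10.1 to 11.9 CPM at 3 h, overlapping DMSO, and 12.7 to 16.0 CPM at 9 h, with no call at either time (adjusted p = 0.81 and 0.93). GSK205 lowered it at 3 h, to 8.34 to 9.66 CPM (-0.33 ± 0.09, adjusted p = 0.0058), and not at 9 h (0.13 ± 0.08, adjusted p = 0.26).

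PANX3, which is known from cartilage and bone cells in mouse, was nearly silent in the TRPV4 experiment. It had 0 reads in 30 of 48 libraries and at most 6 in any. The loaded libraries at 3 h held 0, 2, 4 and 6 reads, the DMSO libraries at 3 h held 0, 0, 2 and 4, and the DMSO libraries at 9 h and the GSK101 libraries at 3 h held 0 in all 4. With GSK101 at 9 h they held 0, 0, 0 and 2. In the fit without the filter on low counts, the change of the GSK101 effect on PANX3 between 3 h and 9 h was called (adjusted p = 0.019), on 2 reads in 1 GSK101 library and 6 reads in 2 DMSO libraries.

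Of the other ATP release channels, 6 of 11 rose and 4 fell with GSK101 at 9 h (62.3% of all genes called). With IL-1, 3 rose and 6 fell (65.1%). LRRC8C, a subunit of the volume-regulated anion channel, rose with both, by 2.33 ± 0.05 and 1.09 ± 0.05. ANKH, which moves ATP and pyrophosphate out of cartilage cells, rose by 0.77 ± 0.04 with GSK101 (adjusted p = 3.4e-16) and fell by 2.40 ± 0.05 on the log2 scale with IL-1 (adjusted p = 4.7e-29). PANX2, the third pannexin gene, fell by 1.58 ± 0.15 with GSK101 (adjusted p = 3.8e-11). Loading called 1 of the 11 up and 1 down at 9 h, where 23.7% of all genes were called. These were SLC17A9, a vesicular nucleotide transporter, at 0.15 ± 0.05, and LRRC8A at -0.36 ± 0.05.

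For receptors and enzymes of extracellular nucleotides, the counts at 9 h stand beside 65.1% of all genes called with IL-1 and 62.3% with GSK101, and are not above them. With IL-1 at 9 h, 9 of 17 rose and 2 fell, with a median of 0.35 beside -0.07 over all genes. ADORA2A, an adenosine receptor gene, rose by 5.48 ± 0.27 (adjusted p = 5.9e-18), P2RX1 by 3.94 ± 0.61 and P2RY6 by 3.02 ± 0.52. With GSK101 at 9 h, 7 rose and 2 fell, but the median was -0.06. P2RY2, a receptor for ATP and UTP, rose by 4.09 ± 0.14 (adjusted p = 3.9e-22), and ADORA1 fell by 1.78 ± 0.14. With loading at 9 h (23.7% of all genes called), 0 rose and 1 fell, P2RY14 (-1.16 ± 0.26, adjusted p = 0.0014).

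**Figure D3:**
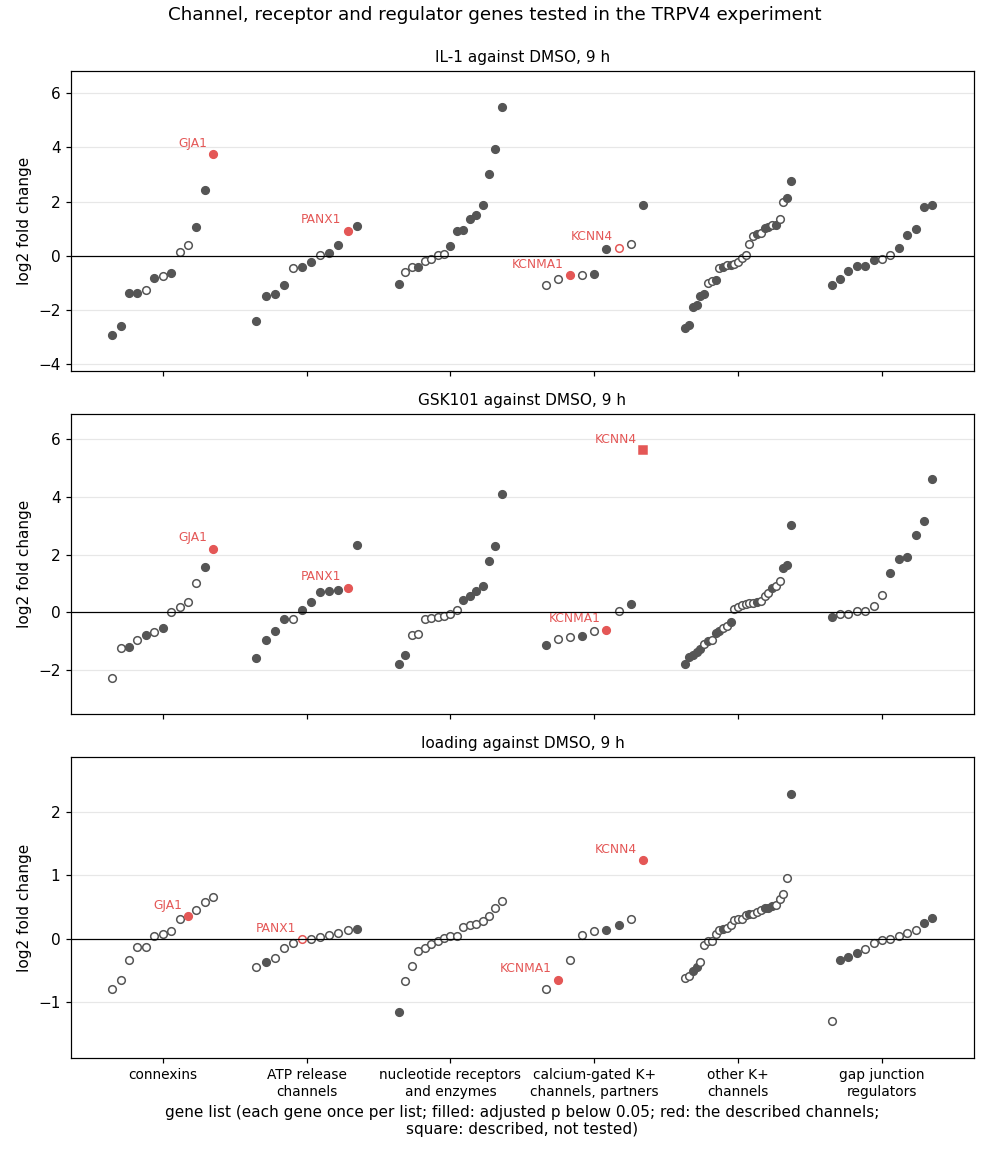
Log2 fold change of every tested gene in 6 lists at 9 h against DMSO, for IL-1, GSK101 and loading, sorted within each list; filled points were called, open points were not, and the described channels are red. GJA1 is the top connexin with IL-1 (3.74) and with GSK101 (2.21), and KCNMA1 is the only red point below 0 that is called in all 3 panels.

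KCNN4 was low in control constructs and high in one condition. The DMSO libraries held 1.22 to 1.73 CPM of KCNN4 at 3 h and 0.62 to 1.31 CPM at 9 h. With GSK101 the 4 libraries held 2.06, 3.62, 3.89 and 3.93 CPM at 3 h and 49.0, 49.6, 49.9 and 51.4 CPM at 9 h. The described change was 1.24 ± 0.26 at 3 h and 5.60 ± 0.17 at 9 h, where it ranked 12 of 16540 genes by fold change. Against IL-1 it was 1.95 ± 0.27 at 3 h and 5.29 ± 0.16 at 9 h.

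KCNN4 showed no called change with IL-1 at 9 h, and at 3 h the call depended on the test. The IL-1 libraries held 0.29, 0.86, 1.09 and 1.13 CPM at 3 h, all below the DMSO libraries, but the change was not called (-0.72 ± 0.29, adjusted p = 0.054). It was called lower by DESeq2 (adjusted p = 0.034), with DESeq2's size factors in edgeR (0.049), with protein-coding genes alone (0.041) and without replicate 2 or 3 of the IL-1 group (0.036 and 0.04). At 9 h they held 1.00 to 1.38 CPM, within and just above the DMSO range (0.31 ± 0.21, adjusted p = 0.21). The IL-1 effect differed between the times by 1.03 ± 0.36 (adjusted p = 0.017), a call that was lost without replicate 1 or replicate 4 of every group (adjusted p up to 0.22).

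KCNN4 was above the DMSO controls in every library loaded without GSK205, and the later rise was called. The loaded libraries held 2.20, 2.32, 2.37 and 2.82 CPM at 3 h and 2.04, 2.49, 2.56 and 2.67 CPM at 9 h, above every DMSO library of the same time. The changes were 0.74 ± 0.27 (adjusted p = 0.071) and 1.24 ± 0.19 (adjusted p = 1.4e-05). The 3 h change was called by DESeq2 (adjusted p = 0.044) and with the compared libraries alone (0.041). At 9 h, KCNN4 was also higher with loading than with IL-1 (0.93 ± 0.18, adjusted p = 2.6e-05), the single higher gene beside 2 lower ones in a comparison that called 65.5% of all genes.

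GSK205 lowered KCNN4 at 3 h with or without loading. Free-swelling libraries with GSK205 held 0.52, 0.57, 0.68 and 0.89 CPM at 3 h, below all DMSO libraries (-1.12 ± 0.30, adjusted p = 0.0053). Loaded libraries with GSK205 held 0.76, 0.77, 1.11 and 1.38 CPM, below all libraries loaded without it (-1.28 ± 0.27, adjusted p = 0.0013). KCNN4 was the 1 gene of the 4 called in that comparison, where 15.3% of all genes were called. At 9 h the loaded libraries with GSK205 held 1.67 to 2.86 CPM and overlapped those without it, and 0 of the 4 genes were called (4.1% of all genes, and 0 of the 4 by unadjusted p or by DESeq2). Loading raised KCNN4 within GSK205 at 9 h (0.75 ± 0.20, adjusted p = 0.0059) and was not called there at 3 h (0.59 ± 0.30, adjusted p = 0.24). The fit of the compared libraries alone lost the 9 h call (adjusted p = 0.059). Loading within GSK205 called 0 genes up and 1 down at 3 h (11.9% of all genes), and 1 up and 1 down at 9 h (18%). The interaction of loading and GSK205 was not called for KCNN4 at 3 h (-0.16 ± 0.41, adjusted p = 0.91) or 9 h (-0.48 ± 0.28, adjusted p = 0.37).

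Markers of other cell types that use KCNN4 were read beside it. The summed level of 4 erythroid markers was at most 0.624 CPM in any TRPV4 library. The 9 leukocyte markers summed to 33.1 to 41.3 CPM with GSK101 at 9 h and 33.8 to 41.5 CPM with DMSO. The pan-leukocyte gene PTPRC, at 0.0227 CPM with DMSO at 3 h and 0.068 CPM with GSK101 at 9 h, was close to 0. Most of the sum was CD14, at 25.9 CPM in both groups at 9 h. With IL-1 at 9 h the sum was 95.4 to 105 CPM, again mostly CD14, while KCNN4 was not called. The 5 endothelial markers summed to 2.91 to 4.87 CPM with DMSO at 9 h and 5.21 to 5.97 CPM with GSK101. Among them PECAM1 rose with GSK101 at 9 h (0.53 ± 0.17, adjusted p = 0.0081) and VWF was not called (adjusted p = 0.46). PECAM1 also rose with IL-1 at 9 h (0.51 ± 0.17, adjusted p = 0.008). The part of endothelial cells in the KCNN4 values was not tested.

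KCNMA1 ran the opposite way by 9 h. It held 106, 106, 116 and 119 CPM in the DMSO libraries at 3 h and 87.1, 87.9, 89.1 and 90.0 CPM at 9 h. At 9 h the libraries held 56.5 to 64.0 CPM with GSK101, 50.8 to 58.2 CPM with IL-1, 53.7 to 62.0 CPM with loading and 68.8 to 74.8 CPM with GSK205. Every one of these 16 libraries lay below every DMSO library of that time. KCNMA1 fell by 0.60 ± 0.05 with GSK101 (adjusted p = 6.3e-12), by 0.72 ± 0.05 with IL-1 (adjusted p = 4.8e-14), by 0.65 ± 0.05 with loading (adjusted p = 1.5e-10) and by 0.31 ± 0.05 with GSK205 (adjusted p = 3e-05), all on the log2 scale. Between GSK101 and IL-1 at 9 h KCNMA1 was not called (0.12 ± 0.05, adjusted p = 0.055, 95% interval 0.02 to 0.22), while its unadjusted p was below 0.05. It was called without replicate 3 of the GSK101 group (adjusted p = 0.039) and without replicate 2 or 4 of the IL-1 group (0.049 and 0.028). Between loading and IL-1 at 9 h it was not called (0.07 ± 0.05, adjusted p = 0.2, 95% interval -0.03 to 0.17).

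At 3 h KCNMA1 was less even. With GSK101 the libraries held 109, 122, 130 and 167 CPM and overlapped DMSO, with a called rise of 0.26 ± 0.09 (adjusted p = 0.026). Without the highest of them, replicate 1, the rise was not called (adjusted p = 0.23), and it was also lost without either of 2 DMSO libraries. With loading they held 78.7, 83.3, 88.1 and 111 CPM, a called fall (-0.30 ± 0.09, adjusted p = 0.039) that was lost when any of 5 of the 8 libraries was left out (adjusted p up to 0.16). With IL-1 the fall was not called (-0.21 ± 0.09, adjusted p = 0.081), but it was without the filter on low counts (adjusted p = 0.029), with protein-coding genes alone (0.043), with the compared libraries alone (0.013) and without replicate 3 of the IL-1 group (0.037). The GSK101 effect turned between the times, by -0.81 ± 0.11 (adjusted p = 2.7e-08), and the IL-1 effect grew downward by -0.47 ± 0.11 (adjusted p = 0.00059).

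Loading lowered KCNMA1 with GSK205 present as well, at 3 h (83.6 to 90.6 against 110 to 118 CPM; -0.41 ± 0.09, adjusted p = 0.0032) and again at 9 h (57.8 to 64.2 against 68.8 to 74.8 CPM; -0.26 ± 0.05, adjusted p = 0.00038). The interaction at 9 h was called (0.38 ± 0.07, adjusted p = 0.0012), as 1 of 4 genes where 4.64% of all genes were called. The levels show its shape: loading with and without GSK205 ended close together, from starting levels that differed. From 3 h to 9 h in DMSO, KCNMA1 fell (-0.34 ± 0.08, adjusted p = 0.001) and PANX1 rose (0.25 ± 0.08, adjusted p = 0.017), where 22.2% of all genes were called. The PANX1 call was lost without replicate 1, 2 or 3 of both groups (adjusted p up to 0.11). KCNMA1 is strong in smooth muscle, and the 5 smooth muscle and pericyte markers summed at 9 h to 37.2 to 43.4 CPM with DMSO, 20.8 to 21.5 CPM with IL-1, 38.3 to 45.4 CPM with GSK101 and 36.5 to 40.9 CPM with loading. With GSK101 and loading the sums overlapped DMSO. With IL-1 PDGFRB (-1.21 ± 0.07, adjusted p = 1e-16) and RGS5 (-1.07 ± 0.31, adjusted p = 0.0034) fell, while MYH11, the smooth muscle myosin gene, rose (2.21 ± 0.26, adjusted p = 5.5e-09). The part of such cells in the KCNMA1 result was not tested. In the RefSeq annotation the KCNMA1 gene overlaps LOC110256684, a long noncoding RNA gene. The strand setting of the counting is not given in the sources used here, so reads of the pair cannot be told apart.

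The partners of these potassium channels moved in both directions. Of 7 other calcium-gated channel and partner genes, 1 rose and 2 fell with GSK101 at 9 h (62.3% of all genes called). With IL-1 at 9 h, 2 rose and 1 fell (65.1%). KCNN3, a small-conductance relative of KCNN4, fell with GSK101 (-1.12 ± 0.34, adjusted p = 0.0056) and rose with IL-1 (1.88 ± 0.29, adjusted p = 8.3e-07). The calmodulin gene CALM3 fell with both (-0.83 ± 0.04 and -0.67 ± 0.04). Among 29 other potassium channel genes at 9 h, 5 rose and 9 fell with GSK101, 6 rose and 9 fell with IL-1, and 6 rose and 2 fell with loading. Over all genes, 62.3%, 65.1% and 23.7% were called in these 3 comparisons. KCNE4, an accessory subunit that inhibits voltage-gated channels, fell by 1.78 ± 0.10 with GSK101 and 2.67 ± 0.10 with IL-1 on the log2 scale and rose by 0.51 ± 0.09 with loading (adjusted p = 6.4e-05). KCNK1, a two-pore leak channel, rose by 1.64 ± 0.05 with GSK101, and KCNK10, a relative opened by stretch, rose by 1.54 ± 0.64 with GSK101 and 2.29 ± 0.61 with loading (adjusted p = 0.036 and 0.0058).

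In the PIEZO1 experiment the same genes were read under compression, Yoda1 and siRNA. All 5 entered those fits, PANX3 included. Over the 3 transfection states, compression called 1 gene up and 0 down at 3 h (13.1% of all genes) and 1 up and 2 down at 9 h (13.6%). Yoda1 called 1 up and 0 down at 3 h (11.2%) and 0 at 9 h (0.21%). Comparisons of siPIEZO1 with siNTC and of siNTC with NT over the 3 stimuli were added after the libraries had been examined. For siPIEZO1 against siNTC, 0 rose and 1 fell at 3 h (15.1%), and 1 rose and 1 fell at 9 h (19.7%). For siNTC against NT, 1 rose and 0 fell at 3 h (21.6%), and 2 rose and 2 fell at 9 h (19.1%). Comparisons within an experiment and time share vehicle libraries.

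**Figure D4:**
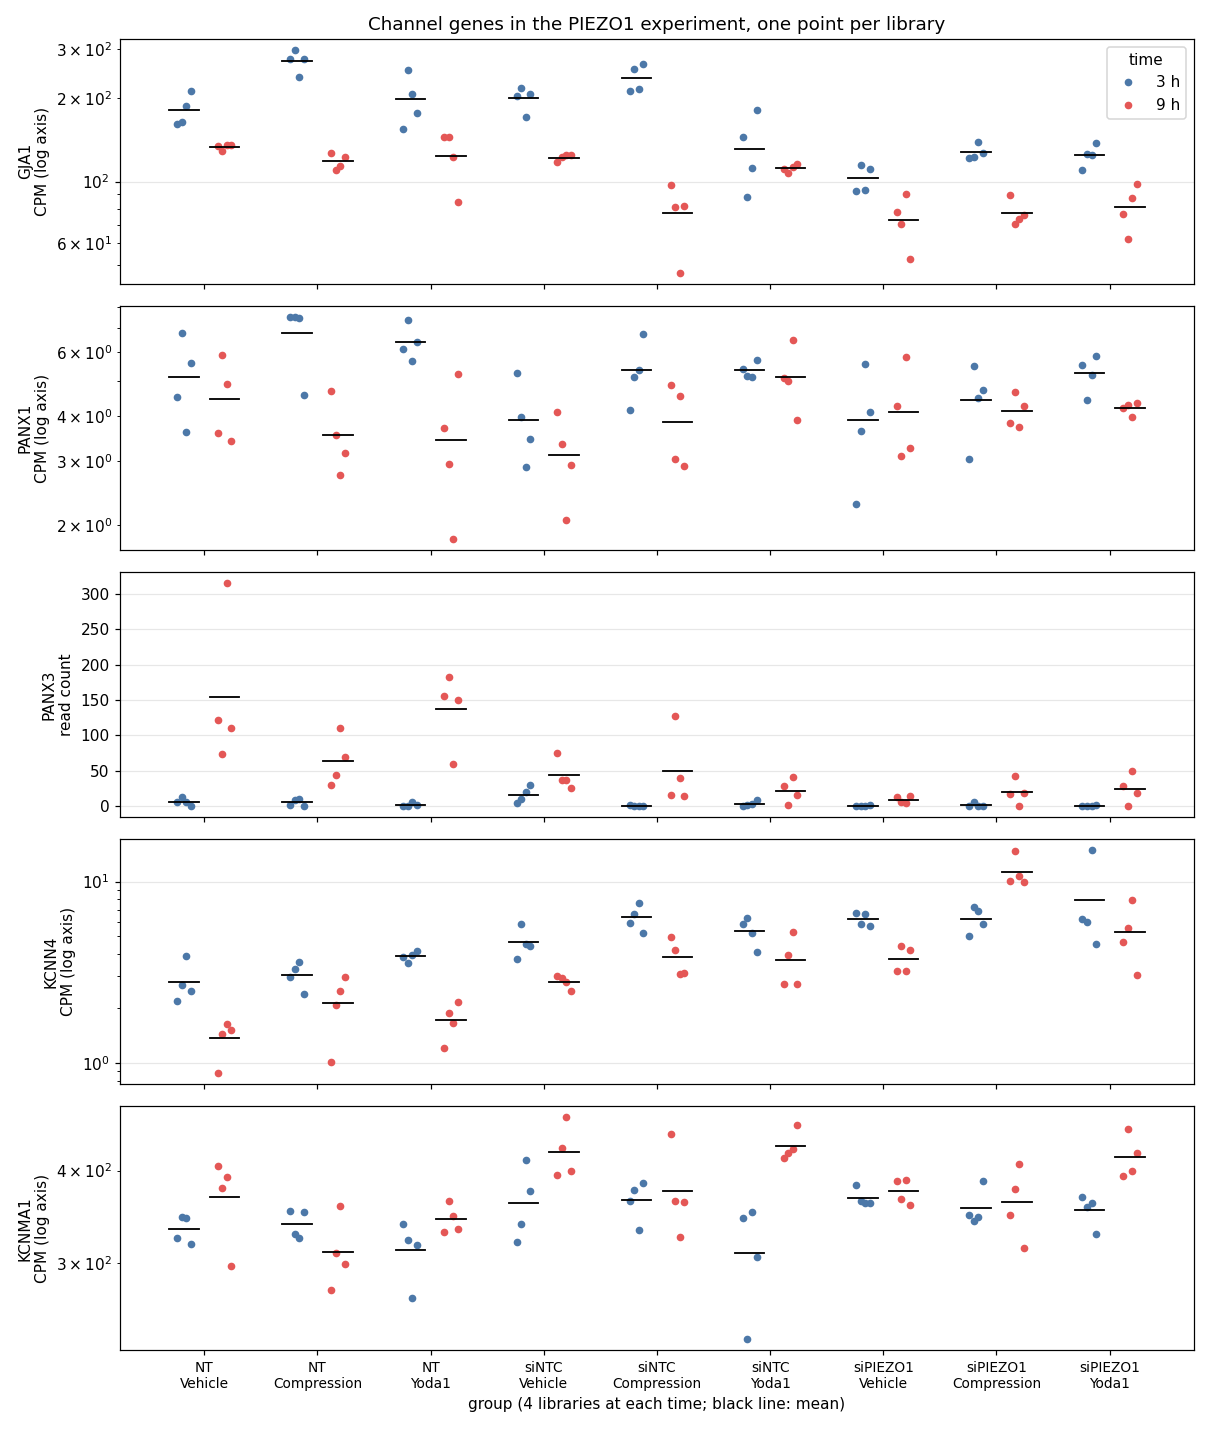
Level of each channel gene in every PIEZO1 library by transfection state and stimulus (CPM on log axes, except PANX3, shown as read count), with 4 libraries and a black mean line per group and time, blue at 3 h and red at 9 h. KCNN4 is highest with siPIEZO1 and compression at 9 h (mean 11.4 CPM), and PANX3 reads are mostly from 9 h libraries, up to 315 in one.

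The siRNA groups differed in GJA1. At 3 h in vehicle, GJA1 held 171, 203, 206 and 216 CPM with siNTC and 92.3, 93.6, 111 and 115 CPM with siPIEZO1, with no overlap (-0.94 ± 0.15, adjusted p = 4.1e-05). At 9 h it held 117 to 124 CPM with siNTC and 52.7 to 90.6 CPM with siPIEZO1, again with no overlap (-0.74 ± 0.15, adjusted p = 0.001). Over the 3 stimuli GJA1 fell at 3 h (-0.62 ± 0.08, adjusted p = 7.2e-07) and again at 9 h (-0.40 ± 0.09, adjusted p = 0.00089). The gap was not seen under every stimulus. The siNTC and siPIEZO1 libraries overlapped with Yoda1 at 3 h (131 ± 40.1 and 125 ± 11.4 CPM). They also overlapped with compression at 9 h (76.9 ± 21.2 and 77.2 ± 8.30 CPM). No overlap was seen with compression at 3 h (236 ± 27.1 and 127 ± 7.99 CPM) or Yoda1 at 9 h (112 ± 3.39 and 81.1 ± 15.2 CPM). Over those stimuli, siNTC against NT was not called for GJA1 at 3 h (-0.22 ± 0.08, adjusted p = 0.06) and was lower at 9 h (-0.31 ± 0.09, adjusted p = 0.009). In the order of the 18 group means the only gap between neighbours was between NT vehicle at 3 h (181 ± 23.4 CPM) and NT vehicle at 9 h (133 ± 2.91 CPM).

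The siPIEZO1 groups received 3 siRNAs together, against different transcript variants, at about 222, 278 and 278 nM in the order below. They are shown because every siPIEZO1 result depends on them. The labels give each RNA sequence without naming its strand, so no seed is marked.
siPIEZO1a: cagcgagaucucgcacuccauc
siPIEZO1b: uacgaccugcugcagcuccug
siPIEZO1c: acccgcuggccaugcaguucuu
They are 22, 21 and 22 bases long, and each holds 13 G or C bases. Their target, pig PIEZO1, lies on chromosome 6. The sequence of siNTC was not used here.

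Markers of fibroblasts and synovium moved with the same groups. Their summed level in vehicle at 3 h was 1340 to 1490 CPM in NT, 607 to 691 CPM with siNTC and 318 to 372 CPM with siPIEZO1. In vehicle at 9 h it was 1570 to 1810, 760 to 1200 and 414 to 526 CPM. Of the 6 markers, 4 fell at 3 h and 5 at 9 h for siPIEZO1 against siNTC over the 3 stimuli (15.1% and 19.7% of all genes called). For siNTC against NT, 3 fell at either time (21.6% and 19.1%). No group had any of the 6 at 0. Summed chondrocyte markers in vehicle at 3 h were 11200 to 12700, 10600 to 12200 and 8640 to 10300 CPM. The part of these cell types in the GJA1 and KCNN4 results was not tested.

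Compression raised GJA1 at 3 h, while the fall called at 9 h was lost when single libraries were left out. In NT cells at 3 h it held 161, 164, 187 and 211 CPM in vehicle and 237, 277, 277 and 297 CPM after compression (0.58 ± 0.15, adjusted p = 0.011), the 1 gene called there, where 6.27% of all genes were called. That call was lost without replicate 1 or replicate 2 of the vehicle group (adjusted p up to 0.061). The 3 h rise was 0.37 ± 0.08 over the 3 states (adjusted p = 0.0023). It was not called within siNTC (0.24 ± 0.14, adjusted p = 0.58, with 0.911% of all genes called) or within siPIEZO1 (0.30 ± 0.15, adjusted p = 0.38, 0.6%). Of the 5 genes, 1 had an unadjusted p below 0.05 in siNTC (PANX3) and 1 in siPIEZO1 (GJA1), and DESeq2 called 0 in both.

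At 9 h after compression GJA1 held 47.1, 81.4, 81.8 and 97.4 CPM in siNTC cells against 117, 122, 124 and 124 CPM in vehicle (-0.67 ± 0.15, adjusted p = 0.0062), the 1 gene called where 6.43% of all genes were. Without replicate 3 of the compressed group, the lowest library, it was not called (adjusted p = 0.053). In NT cells the values were 110 to 127 against 129 to 135 CPM (-0.18 ± 0.15, adjusted p = 0.62), and in siPIEZO1 cells they overlapped (0.09 ± 0.15, adjusted p = 0.91). The 9 h fall over the 3 states (-0.26 ± 0.09, adjusted p = 0.046) was lost when any of 21 of the 24 libraries was left out (adjusted p up to 0.11). In NT cells 0 of the 5 genes were called at 9 h (3.51% of all genes), 3 had an unadjusted p below 0.05 (KCNN4, KCNMA1 and PANX3), and DESeq2 called 0. The compression effect in NT cells fell between the times for GJA1 alone (-0.76 ± 0.22, adjusted p = 0.018, 9.21% of all genes called), a call lost without replicate 1, 2 or 3 of each group (adjusted p up to 0.15). The difference of the compression effect between siPIEZO1 and siNTC was called for 0 of the 5 genes at 3 h (0% of all genes; 1 gene by DESeq2 and 854 at an unadjusted p below 0.05). Of the 5, 1 had an unadjusted p below 0.05 (PANX3) and DESeq2 called 0. At 9 h it was also called for 0 of the 5 (1.09%), with an adjusted p of 0.072 for GJA1 (0.76 ± 0.21), which DESeq2 called (adjusted p = 0.021), as did edgeR without replicate 1 of siNTC with compression (0.022) or replicate 3 of siPIEZO1 with vehicle (0.027).

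Yoda1 lowered GJA1 in siNTC cells at 3 h. It held 87.9, 112, 145 and 180 CPM against 171 to 216 CPM in vehicle, with overlap in 1 library (-0.60 ± 0.15, adjusted p = 0.012). GJA1 was the 1 gene of 5 called there (5.4% of all genes). Without replicate 2 of the Yoda1 group, the lowest, the fall was not called (adjusted p = 0.11). The Yoda1 effect differed between siPIEZO1 and siNTC (0.87 ± 0.21, adjusted p = 0.032), as 1 of 5 genes where 0.938% of all genes were called. That call was lost when any of 7 of the 16 libraries was left out (adjusted p up to 0.076). Within NT (0.12 ± 0.14, adjusted p = 0.77) and within siPIEZO1 (0.27 ± 0.15, adjusted p = 0.47) no change of GJA1 was called at 3 h. In those 2 comparisons 0 of the 5 genes were called (0.409% and 0.262% of all genes), 0 had an unadjusted p below 0.05, and DESeq2 called 0.

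At 9 h Yoda1 was called for none of the 5 genes in any state by edgeR. Over all genes, 0% were called in NT (16 genes by DESeq2 and 1580 at an unadjusted p below 0.05), 0% in siNTC (2 genes by DESeq2 and 982 at an unadjusted p below 0.05) and 2.54% in siPIEZO1. Among the 5 genes, 1 had an unadjusted p below 0.05 in siNTC (PANX1) and 1 over the 3 states (KCNN4), with 0 in NT and in siPIEZO1, and DESeq2 called 0 in each. The difference of the Yoda1 effect between siPIEZO1 and siNTC was called for 0 of the 5 at 9 h (0.0269% of all genes), with 0 at an unadjusted p below 0.05 and 0 by DESeq2. GJA1 lay at -0.03 ± 0.09 over the 3 states, with a 95% interval of -0.20 to 0.14.

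**Figure D5:**
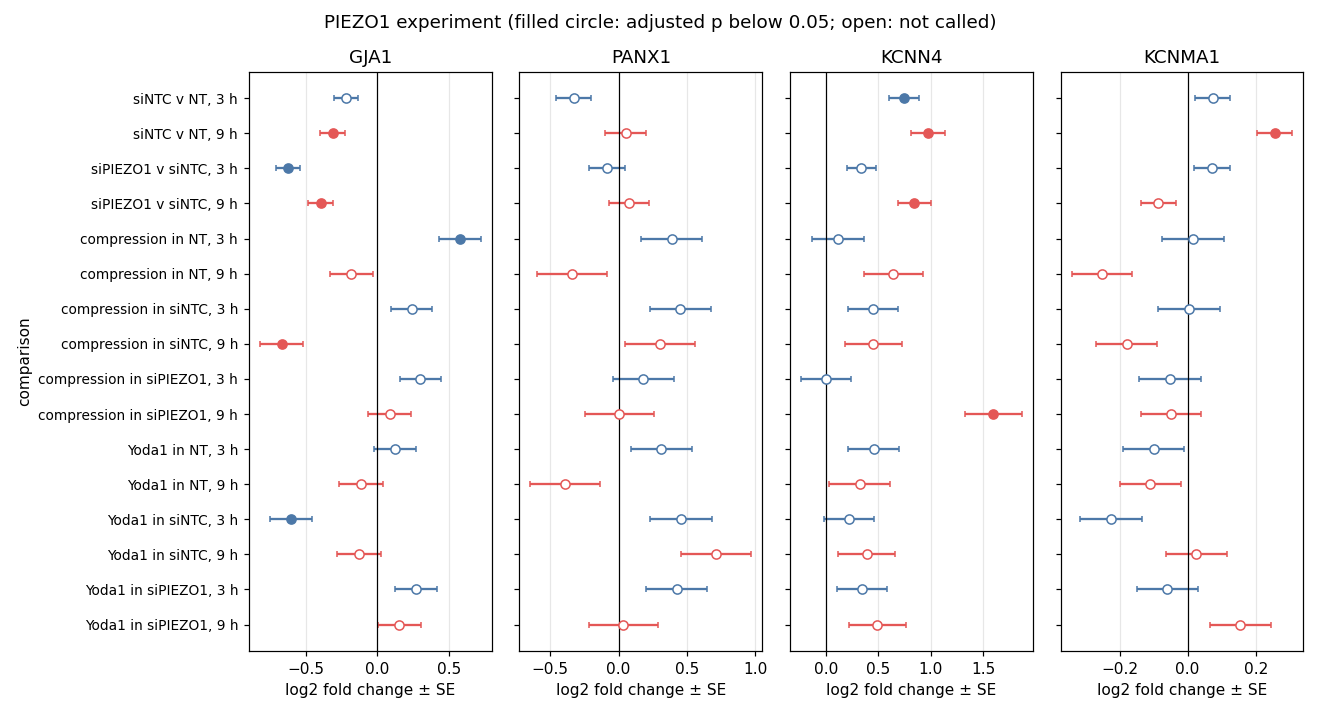
Log2 fold change ± SE of 4 channel genes in 16 comparisons of the PIEZO1 experiment, blue at 3 h and red at 9 h; the siRNA comparisons are over the 3 stimuli, filled circles were called and open circles were not. GJA1 lies below 0 and KCNN4 above 0 in all 4 siRNA comparisons, with KCNN4 largest for compression in siPIEZO1 cells at 9 h (1.60).

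KCNN4 was higher with siNTC than in non-transfected cells. In vehicle at 9 h it held 0.88, 1.44, 1.52 and 1.64 CPM in NT, 2.49 to 3.02 CPM with siNTC and 3.21 to 4.40 CPM with siPIEZO1, with no overlap between the 3 states. For siNTC against NT in vehicle the rise was 1.01 ± 0.28 at 9 h (adjusted p = 0.027), the 1 gene of 5 called where 5.3% of all genes were. That call was lost when any of 5 of the 8 libraries was left out (adjusted p up to 0.096). At 3 h it was 0.71 ± 0.24 (adjusted p = 0.067), with 0 of 5 genes called (7.53% of all genes), while the unadjusted p was below 0.05 for 1 of the 5, KCNN4, which DESeq2 called. Over the 3 stimuli KCNN4 rose with siNTC at 3 h (0.75 ± 0.14, adjusted p = 9.2e-05) and again at 9 h (0.97 ± 0.16, adjusted p = 2e-05).

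With siPIEZO1 over the 3 stimuli KCNN4 rose further than with siNTC at 9 h (0.84 ± 0.16, adjusted p = 8.5e-05) and was not called at 3 h (0.34 ± 0.14, adjusted p = 0.097). In vehicle alone that step was not called at 3 h (0.45 ± 0.24, adjusted p = 0.33) or at 9 h (0.43 ± 0.27, adjusted p = 0.37). In vehicle, siPIEZO1 against siNTC called 0 genes up and 2 down at 3 h (5.07% of all genes), and 0 up and 1 down at 9 h (10.8%). The 9 leukocyte markers summed to 38.3 to 51.8 CPM in NT vehicle at 9 h, 38.6 to 49.7 CPM with siNTC and 61.1 to 89.5 CPM with siPIEZO1. The 5 endothelial markers summed to 3.13 to 4.78 CPM with siNTC and 5.54 to 9.39 CPM with siPIEZO1 there, and PECAM1 rose over the 3 stimuli at 9 h (0.94 ± 0.18, adjusted p = 0.00013). The part of either cell type was not tested.

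Compression raised KCNN4 at 9 h. In siPIEZO1 cells the libraries held 3.21, 3.22, 4.22 and 4.40 CPM in vehicle and 9.90, 10.1, 10.7 and 14.7 CPM after compression (1.60 ± 0.27, adjusted p = 0.00025), the 1 gene of 5 called where 2.18% of all genes were. The rise was called in each of the 14 alternatives, the fit without the highest library among them. In siNTC the values were 2.49 to 3.02 against 3.08 to 4.93 CPM, without overlap but not called (0.45 ± 0.27, adjusted p = 0.37). In NT they were 0.88 to 1.64 against 1.01 to 3.00 CPM (0.64 ± 0.28, adjusted p = 0.23). Over the 3 states the rise was 0.90 ± 0.16 (adjusted p = 0.00014). The difference of the effect between siPIEZO1 and siNTC was 1.14 ± 0.38 and was not called (adjusted p = 0.14). Both KCNN4 and GJA1 had an unadjusted p below 0.05 there, and DESeq2 called 1 of the 5, GJA1 and not KCNN4. At 3 h compression left KCNN4 at 0.19 ± 0.14 over the 3 states (adjusted p = 0.42). The summed leukocyte markers in siPIEZO1 cells at 9 h were 72.1 to 81.4 CPM after compression, within the vehicle range, and PECAM1 was not called (-0.22 ± 0.30, adjusted p = 0.87). The part of leukocytes or endothelial cells in the KCNN4 rise was not tested.

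Over the 3 states Yoda1 gave no call for KCNN4 at 3 h (0.34 ± 0.14, adjusted p = 0.11) or 9 h (0.40 ± 0.16, adjusted p = 0.28). One siPIEZO1 library with Yoda1 at 3 h held 14.9 CPM, where the other 3 held 4.55 to 6.19 CPM. From 3 h to 9 h in NT vehicle KCNN4 fell (-1.04 ± 0.27, adjusted p = 0.0041), GJA1 fell (-0.44 ± 0.16, adjusted p = 0.041) and PANX3 rose, so that 1 gene rose and 2 fell where 16.1% of all genes were called. The GJA1 call was lost when any of the 4 replicate numbers was left out of every group (adjusted p up to 0.14).

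PANX1 moved little in the PIEZO1 experiment. Its levels ran from 1.83 to 7.51 CPM over the 72 libraries. Over the 3 states at 3 h it rose with Yoda1 (0.40 ± 0.13, adjusted p = 0.039), a call lost when any of 14 of the 24 libraries was left out (adjusted p up to 0.084). With compression the same comparison gave 0.34 ± 0.13, which was not called (adjusted p = 0.076). It was called by DESeq2 (adjusted p = 0.043) and when some single libraries were left out (adjusted p down to 0.029). Neither siRNA comparison over the 3 stimuli was called for PANX1 at either time (adjusted p = 0.064 to 0.87). For siNTC against NT at 3 h it was called lower by DESeq2 (adjusted p = 0.048), with the compared libraries alone (0.043) and when some single libraries were left out.

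PANX3 reads appeared mainly at 9 h. In NT vehicle the libraries held 0, 6, 6 and 12 reads at 3 h and 73, 110, 121 and 315 reads at 9 h, without overlap. In CPM these were 0.14 ± 0.12 and 3.53 ± 2.23, a rise of 4.67 ± 0.96 (adjusted p = 0.00018) that kept its call in every alternative run. By summed reads, 619 against 24, the ratio was 27.6 (95% interval 18.4 to 43.4). This interval and those of other read ratios cover counting error only, and reads are not independent molecules here.

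The siRNA groups held fewer summed PANX3 reads at 9 h than NT groups with the same stimulus. In vehicle at 9 h, siNTC libraries held 26, 37, 37 and 75 reads and siPIEZO1 libraries 4, 6, 12 and 14. That difference between the siRNAs was not called, but it was with the compared libraries alone (adjusted p = 0.042). It was not seen under every stimulus. Summed reads at 9 h with siNTC and siPIEZO1 were 196 and 78 after compression, and 86 and 96 with Yoda1. Over the 3 stimuli at 9 h, siNTC was lower than NT (-1.81 ± 0.43, adjusted p = 0.0021), and siPIEZO1 against siNTC was not called (-1.10 ± 0.45, adjusted p = 0.087). At 3 h over the 3 stimuli neither was called (adjusted p = 0.55 and 0.29). In vehicle at 3 h the siNTC libraries held 4, 10, 20 and 30 reads and the siPIEZO1 libraries 0, 0, 0 and 1. That ratio was 0.0152 (95% interval 0.000379 to 0.0878), and the fall was called (adjusted p = 0.034). DESeq2 set no adjusted p for it, and the call was lost without the filter on low counts (adjusted p = 0.053) and when any of 6 of the 8 libraries was left out (adjusted p up to 0.11). The siNTC group with compression at 3 h also held 0, 0, 0 and 1 reads, without a call (adjusted p = 0.097). PANX3 was not called for compression or Yoda1 over the 3 states at either time (adjusted p = 0.53 to 0.97).

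KCNMA1 varied little in the PIEZO1 experiment. Its level ran from 237 to 473 CPM over the 72 libraries, and every group overlapped its neighbour in the order of levels. Compression lowered it slightly at 9 h over the 3 states (-0.16 ± 0.05, adjusted p = 0.032), a call lost when any of 14 of the 24 libraries was left out (adjusted p up to 0.08). For siNTC against NT over the 3 stimuli it was higher at 9 h (0.26 ± 0.05, adjusted p = 3e-04). In NT vehicle KCNMA1 was not called between 3 h and 9 h (0.14 ± 0.09, adjusted p = 0.34).

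Other connexins and partners were also read in these comparisons. With siPIEZO1 against siNTC over the 3 stimuli, 2 of 10 other connexins rose and 0 fell at 3 h, and the same count held at 9 h, with medians of 0.62 and 0.49 beside 0.03 and 0.003 over all genes. With 15.1% and 19.7% of all genes called, these counts are near the background. GJC1 rose at both times (0.36 ± 0.08, adjusted p = 0.002, and 0.35 ± 0.10, adjusted p = 0.011). With compression over the 3 states at 3 h (13.1% of all genes called), 2 of the 10 rose, GJC1 among them (0.82 ± 0.08, adjusted p = 4.4e-09), and 0 fell. KCNN3 rose with siNTC against NT (1.49 ± 0.20 at 3 h and 1.10 ± 0.17 at 9 h) and with siPIEZO1 against siNTC (0.69 ± 0.19 and 0.82 ± 0.17), as KCNN4 did in 3 of those 4 comparisons. CCN3 rose with siPIEZO1 against siNTC (1.09 ± 0.06 at 3 h and 0.86 ± 0.06 at 9 h). LRRC8C rose with compression at 3 h (0.60 ± 0.06, adjusted p = 9.8e-10), among 4 of 11 other ATP release genes that rose and 0 that fell. Of 23 other potassium channel genes, compression raised 2 and lowered 3 at 3 h, KCNE4 among the latter (-0.77 ± 0.13, adjusted p = 5.4e-05). The ATP release and potassium channel counts stand beside the same 13.1% of all genes called.

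Genes whose group means ran most like each channel were taken as a description, by Pearson's r of mean log2 CPM. Over the 12 TRPV4 groups, among 12535 genes, GJA1 ran with RELL1, MET and GABARAPL1 (r = 0.99, 0.99 and 0.99), PANX1 with SGPL1, HERC4 and ZC3H14 (0.98, 0.97 and 0.97), KCNN4 with GAS2L3, SLC1A1 and F2RL2 (0.98, 0.97 and 0.97) and KCNMA1 with XYLT1, SCUBE1 and CD82 (0.97, 0.97 and 0.96). Over the 18 PIEZO1 groups, among 11924 genes, GJA1 ran with CHSY1 and NRBF2 (0.97 and 0.96), KCNN4 with HMGA1, MACROH2A1 and P3H1 (0.94, 0.93 and 0.91), and PANX3 with EIF2D, SEPHS1 and LTA4H (0.93, 0.91 and 0.91). Likeness was weaker for PANX1 there, with ZNF518B at 0.82, and for KCNMA1, with CPSF6 at 0.90. Among the channels, GJA1 and PANX1 ran together over the 12 TRPV4 groups (r = 0.857) and less over the 18 PIEZO1 groups (r = 0.57). The groups share libraries, kits and scaling within an experiment. KCNN4 was chosen by its rise with GSK101. Its TRPV4 means were 50.0 CPM with GSK101 at 9 h and 3.38 CPM in the next highest group. Its r values there thus rest largely on the condition by which it was chosen.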

How the data were processed

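The authors deposited 1 table of gene counts for the 120 libraries, used here as deposited. The submitters' processing notes name Trim Galore, STAR and HTSeq as tools and Sscrofa11.1 as the build. Neither their versions nor the strand setting is given in the sources used here. Per the labels, TRPV4 libraries were made after ribosomal RNA removal and PIEZO1 libraries with a low-input kit, so the experiments were fitted apart. The table has 32388 lines for 31907 identifiers, and 481 repeated lines were removed. Even numbers made up 66.12 to 74.77% (TRPV4 experiment) and 52.33 to 63.22% (PIEZO1 experiment) of counts from 1 to 20; the cause was not tested, and intervals from counts may be too narrow. No 2 libraries of a group agreed within sampling noise (chi-square per degree of freedom of at least 5.49 and 12.5).

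Each time was fitted with all its groups in edgeR 4.0.16 (limma 3.58.1, R 4.3.3) by the quasi-likelihood test, after filterByExpr (minimum count 10) and trimmed-mean scaling. Contrasts between times used both times, with 16562, 16540 and 17447 genes tested in the TRPV4 experiment at 3 h, at 9 h and over both, and 18330, 18611 and 20202 in the PIEZO1 experiment. P-values were adjusted over all genes tested by Benjamini-Hochberg, at a threshold of 0.05. Dividing the absolute log2 fold change by the root of its F statistic gave the SE. The scripts were tested on simulated data. Alternatives were DESeq2 1.42.0, its size factors in edgeR, no filter on low counts, only the compared libraries, protein-coding genes alone, a replicate block, and each library left out in turn. For contrasts between times, each replicate number was left out of every group at once instead. In each comparison, members of a gene list were named by size of change: up to 3 called in each direction, a rule extended to the siRNA comparisons after the data had been seen. GSK101 against IL-1, loading against IL-1 and the siRNA comparisons over the 3 stimuli were added after the data had been seen. The channel genes and the gene lists were chosen with earlier results of these data known, so the lists carry no test of their own. No promoter or protein sequence was used here. Some genes that the naming rule gave are not reported here.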

Additional observations from a re-analysis of the deposited data

Results flagged for a closer look

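In 15 of 148 sets tested, each 1 channel gene in 1 group, 1 of the 4 libraries lay far from the other 3. The measure was the gap to its nearest neighbour over the range of the set. For normally distributed values chance gives about 1 in 20 sets. That rate does not hold where 3 libraries are at 0 and 1 is not, since such a set is always flagged. The 8 PANX3 cases each rest on 1 library with reads beside 3 at 0. They are 0.0700 CPM (GSK101, 9 h), 0.0928 and 0.0637 CPM (GSK205, 3 h and 9 h), 0.0253 CPM (loading with GSK205, 3 h), 0.0218 CPM (siNTC compression, 3 h) and 0.109, 0.0210 and 0.0418 CPM (siPIEZO1 with compression, vehicle and Yoda1, 3 h).

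For KCNN4, replicate 1 of GSK101 at 3 h held 2.06 CPM where the others held 3.62 to 3.93 CPM. Replicate 2 of siPIEZO1 with compression at 9 h held 14.7 CPM where the others held 9.90 to 10.7 CPM, and replicate 3 of siPIEZO1 with Yoda1 at 3 h held 14.9 CPM where they held 4.55 to 6.19 CPM. For KCNMA1, replicate 3 of IL-1 at 3 h stood high at 107 CPM, as did replicate 4 of siPIEZO1 with compression (387 CPM) and replicate 1 of siPIEZO1 in vehicle (382 CPM) at 3 h. For PANX1, replicate 4 of NT with compression at 3 h stood low, at 4.58 CPM.

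An effect differed between times or conditions by a direct test in 11 cases. Between 9 h and 3 h, the GSK101 effect differed by 1.54 for GJA1, 0.74 for PANX1 and -0.81 for KCNMA1, and the IL-1 effect by 1.54, 0.58 and -0.47 for the same genes and by 1.03 for KCNN4. The compression effect on GJA1 in NT cells differed by -0.76. The effects of loading with and without GSK205 differed by -0.38 for GJA1 at 3 h and by 0.38 for KCNMA1 at 9 h, and the Yoda1 effects with siPIEZO1 and siNTC by 0.87 for GJA1 at 3 h. All are log2 differences, and their adjusted p-values stand with the results.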

How the results depend on the processing

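Of 68 calls on the channel genes, 51 held in every alternative run, 17 were lost in at least one, and 0 changed direction. The numbers here are counts of channel genes called, first as reported and then under the alternative, for each count that moved by over 1.5 times; smaller moves, such as 2 to 3, are not listed. DESeq2 moved the change of the loading effect from 0 to 1, compression over the 3 states at 3 h from 1 to 2, the interaction of loading and GSK205 at 9 h from 1 to 2, that of siPIEZO1 and compression at 9 h from 0 to 1, siNTC against NT at 3 h in vehicle from 0 to 1 and over the stimuli from 1 to 2, and siPIEZO1 against siNTC in vehicle at 3 h from 2 to 1. DESeq2's size factors in edgeR moved the change of the loading effect from 0 to 1. Without the filter on low counts, DMSO at 9 h against 3 h went from 2 to 1, Yoda1 over the 3 states at 3 h from 1 to 0, and siPIEZO1 against siNTC in vehicle at 3 h from 2 to 1. With only the compared libraries, GSK101 at 3 h, loading within GSK205 at 9 h and siPIEZO1 against siNTC in vehicle at 3 h each went from 2 to 1. There, Yoda1 in siNTC, Yoda1 over the states and the interaction of siPIEZO1 and Yoda1 at 3 h went from 1 to 0, and siNTC against NT at 3 h in vehicle from 0 to 1. Moves from 1 to 2 came for siNTC against NT in vehicle at 9 h and over the stimuli at 3 h, and for siPIEZO1 against siNTC in vehicle at 9 h. With protein-coding genes alone, the change of the loading effect went from 0 to 1 and IL-1 at 3 h from 2 to 4.

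Single libraries were left out in turn, except in comparisons between times, where 1 replicate number was left out of every group at once. Leaving out libraries gave 0 to 1 calls for the changes of the loading effect and of the NT compression effect, compression in NT at 3 h and 9 h and in siNTC at 9 h, both interactions with siPIEZO1 that moved, Yoda1 in siNTC and over the states at 3 h, and siNTC against NT in vehicle at 3 h and 9 h. It gave 1 to 2 calls for compression over the states at 3 h, DMSO at 9 h against 3 h, GSK101 at 3 h, GSK101 against IL-1 at 9 h, the interaction of loading and GSK205 at 9 h, loading at 3 h, siNTC against NT over the stimuli at 3 h, and siPIEZO1 against siNTC at 3 h in vehicle and over the stimuli. It gave 1 to 3 for compression over the states at 9 h and 2 to 4 for IL-1 at 3 h. The cause was not tested.

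The replicate numbers did not meet the bar for pairing, a correlation over 0.1 in every pair: same-numbered libraries deviated together (r over 0.1) in 5 of 60 pairs of groups at 3 h and 6 of 60 at 9 h in the TRPV4 experiment, and in 22 of 144 and 31 of 144 in the PIEZO1 experiment. Of the libraries, 5 and 6 of 24 and 12 and 16 of 36 correlated best with their own number. With 4 numbers in each group, chance gives about 1 in 4. The TRPV4 counts were not above that share. The PIEZO1 counts were above it, which is a hint from the data and not from the design. The replicate block also called KCNMA1 lower with IL-1 at 3 h (adjusted p = 0.045), and it moved siNTC against NT at 3 h from 0 to 1 in vehicle and from 1 to 2 over the stimuli. Low reads limited PANX3 in the TRPV4 experiment and at 3 h in the PIEZO1 experiment.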
